A study of Mus musculus with 4 samples.

Results

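The genes described here are the keratin genes Krt8, Krt18 and Krt19, the cell junction genes Cdh1, Ocln and Cldn3, and Pof1b, Cd24a, Tgm5 and Tpd52l1. They were chosen by name because most of them had been seen to be higher after LSD1 depletion, and every probe set mapped to exactly 1 of these 10 symbols was used. That gave 18 probe sets for 10 of the 18193 genes that had a probe set with a single symbol. The cells were C2C12, an immortalised mouse myoblast line that forms myotubes when serum is lowered. All cells carried a stably selected hairpin plasmid, were grown with 10% fetal bovine serum, 25 mM glucose and 750 µg/mL hygromycin B, and were moved to 2% horse serum. RNA was taken 48 hours later and measured on Affymetrix 3' expression arrays. The control group (shControl, 2 arrays) expressed a non-targeting hairpin and the knockdown group (shLSD1, 2 arrays) a hairpin against LSD1, the histone demethylase encoded by Kdm1a. The labels describe no more than 1 stable selection per hairpin, and an effect of the hairpin cannot be told apart from one of the selected cells. Nothing in the labels ties the 2 arrays of a group to separate cultures, so the p-values reflect array-to-array spread that may be purely technical.

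The contrast of shLSD1 with shControl was what chose the genes. Their differences in that contrast are therefore a description, with no test. The label of the group as genes that rose did not hold for every member: the single Krt18 probe set was lower on both shLSD1 arrays, and the brightest Krt8 probe set differed by 0.53 on the log2 scale (SE 0.31, n = 2 and 2). Of the 18 probe sets, 17 had both shLSD1 signals above both shControl signals and 1 had both below. Over all 34945 probe sets with a single symbol, 23.4% had both shLSD1 signals above both shControl signals and 23.9% had both below.

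Simple epithelia are held together by adherens junctions, in which E-cadherin (Cdh1) joins neighbouring cells, and by tight junctions, in which claudins and occludin seal the space between them. Keratins form the intermediate filaments of these cells as pairs of a type I chain, such as Krt18 or Krt19, with a type II chain, such as Krt8. Muscle cells rely mainly on desmin and vimentin filaments and on other cadherins, although Krt8 and Krt19 proteins are also known at the costameres of striated muscle. In many cell types the Snail and Zeb repressors bind E-box motifs near such genes and recruit LSD1 or its partners.

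The arrays carry no detection calls in the table used, so background was measured from 83 probe sets for 74 olfactory, vomeronasal and taste receptor genes, which serve in sensory cells. This background set was chosen by gene name. Their median signal lay between 10.8 and 14.8 on the 4 arrays and their 95th percentile between 41.6 and 52.9. A signal at or below that 95th percentile on its own array is called near background here. Both shControl signals were near background for 11 of the 18 member probe sets, 1 of the 2 was for 5, and neither was for 2, which were those of Krt19 and the brightest of Krt8. Both shLSD1 signals were above the percentile for 13 probe sets, 1 of the 2 for 3, and neither for 2. For those 11 probe sets the fold change has a background signal as its denominator.

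**Figure D1:**
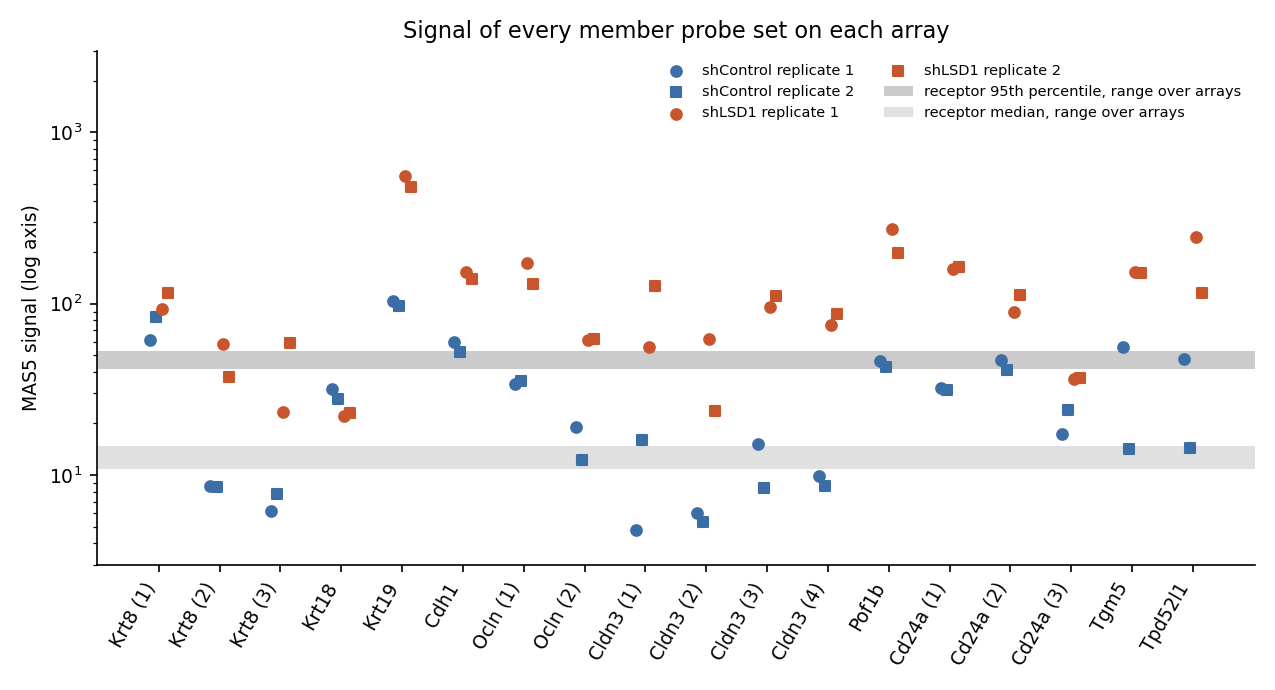
MAS5 signal (log axis) of the 18 member probe sets on the 2 shControl arrays (blue) and the 2 shLSD1 arrays (orange), with numbers in brackets for several probe sets of a gene. Grey bands show the range over the 4 arrays of the receptor probe sets' median (10.8 to 14.8) and 95th percentile (41.6 to 52.9). All orange points lie above the blue ones except for Krt18.

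Spread between arrays was wide in this range of signals. Among single-symbol probe sets with a shControl signal of 1 to 16, the 2 shControl arrays differed by a median of 1.29 on the log2 scale. The median gap was 0.51 for signals from 16 to 64, 0.22 from 64 to 256 and 0.10 from 256 to 1024. In the same contrast the 83 receptor probe sets had a median log2 difference of -0.12, with 17 at 1 or more and 16 at -1 or less. Among all 11914 probe sets with both shControl signals near background, 19.3% had both shLSD1 signals above both shControl signals and 16.1% had both below. A smaller share, 1.45%, were higher by 1 or more on the log2 scale with both shLSD1 signals above the receptor percentile. Of the 11 member probe sets in this range, 10 met the first of these criteria and 6 the last, and nothing follows from these counts because the members were chosen on this contrast.

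Krt19, a type I keratin of simple and ductal epithelia, was above the receptor percentile on all 4 arrays. Its probe set (1417156_at) read 104 and 96.9 in shControl and 556 and 478 in shLSD1, replicate 1 first throughout. The groups lay far apart and each pair of arrays close together. The mean went from 101 ± 5.23 to 517 ± 55.5 (SD, n = 2 each), a 5.12-fold difference, or 2.36 on the log2 scale (SE 0.15).

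Krt8, the type II partner of Krt18 and Krt19, was measured by 3 probe sets that gave different sizes. The brightest (1420647_a_at) read 61.8 and 83.5 in shControl and 92.8 and 116 in shLSD1. The groups did not overlap, but the lowest shLSD1 array stood only a little above the highest shControl array, and the gap between the shControl arrays, 0.44 on the log2 scale, was close to the difference of 0.53. The probe set 1423691_x_at read 8.59 and 8.57 in shControl and 58.0 and 37.2 in shLSD1. The third (1435989_x_at) read 6.13 and 7.74, and then 23.2 and 58.9. These last differences were 2.44 (SE 0.64) and 2.42 (SE 0.77) on the log2 scale, but both probe sets are of a type whose probes can match other transcripts, and 1 of their 2 shLSD1 signals was itself near background.

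Krt18, the usual type I partner of Krt8, was near background on all 4 arrays. Its probe set (1448169_at) read 31.8 and 27.9 in shControl and 22.1 and 23.0 in shLSD1. The difference was -0.40 on the log2 scale (SE 0.55), and its SE exceeded its size. Krt8 and Krt18 lie close together on mouse chromosome 15. No direction can be read for Krt18 from signals this close to background.

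RefSeq promoter entries (build GRCm38.p6, 250 bases before to 50 after a start) were found for 7 of the 10 genes: Krt8, Krt18, Ocln, Cldn3, Pof1b, Tgm5 and Tpd52l1. They were searched on both strands for CAGGTG, an E-box form that Snail and Zeb factors bind among others, and for TGANTCA, the AP-1 core. CAGGTG was in an entry of 6 of the 7, Tgm5 being the exception, against 22.6% of 27025 genes with an entry, and in 5 of the 7 when only the 250 bases before the start were searched, against 19.4%. Over the 12808 entries with a GC content between 52.7% and 68%, the range of the members' entries, 23.4% held it. Krt18, which was near background on all 4 arrays, held it too. TGANTCA was in 0 of the 7, against 8.97% of genes. A match describes letters and not a bound site. The keratin pair is shown because Krt8 and Krt18 are partner chains from nearby loci and both hold the motif. Capitals mark it, here as its reverse complement CACCTG. The stretch shown for Krt8 is chr15:102004343-102004592 on the minus strand, with the motif starting 111 bases before the start. That for Krt18 is chr15:102027966-102028215 on the plus strand, with the motif starting 214 bases before the start.
Krt8: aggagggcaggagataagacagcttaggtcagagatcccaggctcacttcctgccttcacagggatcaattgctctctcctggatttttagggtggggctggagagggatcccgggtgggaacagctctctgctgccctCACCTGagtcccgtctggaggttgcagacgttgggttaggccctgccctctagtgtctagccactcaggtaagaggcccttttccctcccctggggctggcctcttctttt
Krt18: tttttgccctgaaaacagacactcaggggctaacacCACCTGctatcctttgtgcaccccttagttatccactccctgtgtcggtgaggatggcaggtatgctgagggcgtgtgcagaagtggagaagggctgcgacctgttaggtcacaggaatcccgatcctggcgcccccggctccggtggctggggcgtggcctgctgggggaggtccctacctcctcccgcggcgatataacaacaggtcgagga

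Cdh1 encodes E-cadherin, the adhesion receptor of epithelial adherens junctions. Its probe set (1448261_at) read 60.1 and 51.9 in shControl and 153 and 139 in shLSD1. Both groups were tight and stood apart, with a mean of 56.0 ± 5.81 against 146 ± 9.84 (SD, n = 2 each). The difference was 1.38 on the log2 scale (SE 0.27), or 2.61-fold, the smallest among the members' brightest probe sets other than those of Krt8 and Krt18. Of the shControl arrays, replicate 2 was near background and replicate 1 was above it.

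Ocln encodes occludin, a membrane protein of tight junctions. Its brighter probe set (1448873_at) read 34.1 and 35.4 in shControl, both near background, and 173 and 130 in shLSD1. The dimmer one (1440220_at) read 19.2 and 12.2, and then 61.5 and 62.3. Both probe sets put the groups apart by a like amount, 2.11 (SE 0.32) and 2.02 (SE 0.54) on the log2 scale.

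Cldn3, a claudin of simple epithelia, was measured by 4 probe sets. The probe set 1434651_a_at read 4.75 and 15.9 in shControl and 55.8 and 127 in shLSD1. For 1426332_a_at the signals were 5.98 and 5.34, then 62.0 and 23.7. The probe sets 1451701_x_at and 1460569_x_at read 15.2 and 8.37 and 9.82 and 8.60 in shControl, and 95.6 and 112 and 75.4 and 86.8 in shLSD1. All 4 probe sets were near background on both shControl arrays, and 3 of the 4 were above it on both shLSD1 arrays. Their log2 differences were 2.76 to 3.27, with SEs from 0.54 to 0.79. Those sizes depend on how low signals are treated: for the first probe set, with 32 added to each signal before the logarithm, the difference was 1.49, against 2.05 for Krt19 and 1.79 for Pof1b on that scale. The motif sites (capitals) of both tight junction genes are shown because of their places relative to a start. The motif of the Cldn3 site (chr5:134986233-134986262, plus strand) begins at base 32, counted from the start base itself. Ocln has 2 starts and both of its sites lie between them on the minus strand. The motif of the first (chr13:100552694-100552723) begins at base 8, counted likewise from the upstream start. That of the second (chr13:100552549-100552578) begins 68 bases before the downstream start.
Cldn3: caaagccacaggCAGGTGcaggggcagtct
Ocln, first site: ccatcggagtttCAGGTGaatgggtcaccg
Ocln, second site: ctaggggctcggCAGGTGggtcccagcgca

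Pof1b encodes an actin-binding protein found at epithelial junctions. Its probe set (1427492_at) read 46.5 and 42.7 in shControl and 273 and 197 in shLSD1. The groups were well apart, and only shControl replicate 2 was near background. The mean went from 44.6 ± 2.69 to 235 ± 53.7 (SD, n = 2 each), a log2 difference of 2.38 (SE 0.27).

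Cd24a encodes a small lipid-anchored surface glycoprotein of many epithelial and progenitor cells. Its brightest probe set (1448182_a_at) read 32.1 and 31.6 in shControl and 159 and 164 in shLSD1, with close replicates in both groups. The probe set 1416034_at read 46.7 and 41.1, and then 89.2 and 113. The third, 1437502_x_at, read 17.3 and 23.8, and then 36.4 and 37.1, near background on all 4 arrays. All 3 put shLSD1 higher, but by unequal amounts of 2.34 (SE 0.30), 1.19 (SE 0.34) and 0.85 (SE 0.55) on the log2 scale.

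Tgm5, a transglutaminase that crosslinks proteins of the epidermal envelope, and Tpd52l1, of the D52 family of membrane trafficking proteins, had unsteady controls. Tgm5 (1430142_at) read 56.0 and 14.2 in shControl and 154 and 151 in shLSD1. Its shControl arrays differed by 1.98 on the log2 scale, nearly as much as the groups, which differed by 2.43 (SE 0.63). Tpd52l1 (1418412_at) read 47.4 and 14.4 in shControl and 245 and 116 in shLSD1. Here the shControl arrays differed by 1.72 and the shLSD1 arrays by 1.09, against a group difference of 2.69 (SE 0.64). Without shControl replicate 2 the Tgm5 difference was 1.44, and without shControl replicate 1 it was 3.42 for Tgm5 and 3.55 for Tpd52l1, so the size of both rests on which control array is used. The promoters of Pof1b (chrX:112698652-112698901, minus strand) and Tpd52l1 (chr10:31445959-31446208, minus strand) are shown because, of the members outside the keratin and junction families, these held CAGGTG (capitals), starting 110 and 27 bases before the start.
Pof1b: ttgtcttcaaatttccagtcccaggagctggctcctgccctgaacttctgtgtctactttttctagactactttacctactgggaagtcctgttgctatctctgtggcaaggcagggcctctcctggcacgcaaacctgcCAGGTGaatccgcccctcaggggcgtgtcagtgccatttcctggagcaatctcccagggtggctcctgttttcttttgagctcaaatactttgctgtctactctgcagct
Tpd52l1: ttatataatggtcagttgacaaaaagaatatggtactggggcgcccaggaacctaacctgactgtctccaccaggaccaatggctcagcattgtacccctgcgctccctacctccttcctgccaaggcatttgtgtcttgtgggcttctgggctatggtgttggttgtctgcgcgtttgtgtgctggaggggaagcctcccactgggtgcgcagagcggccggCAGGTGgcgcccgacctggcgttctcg

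**Figure D2:**
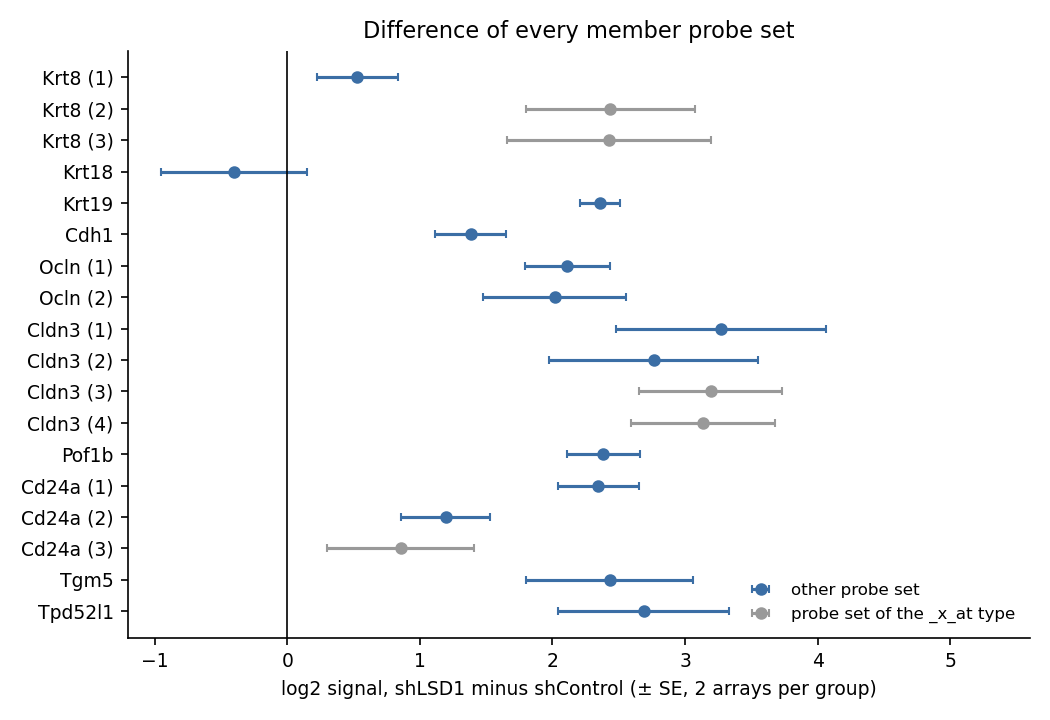
Difference in log2 signal, shLSD1 minus shControl, for the 18 member probe sets. Bars are ± 1 SE from the limma fit over all single-symbol probe sets with 2 arrays per group, and grey points are probe sets of the type that can match other transcripts. Values run from -0.40 for Krt18 to 3.27 for Cldn3, and probe sets of Krt8 and of Cd24a differ among themselves.

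Across all genes, limma was fitted to 1 probe set per gene for the 10788 genes whose mean log2 signal lay above the median over probe sets (6.03 on the log2 scale, which is 65.6 in signal). Of the members, 7 lay above that filter, and Cldn3, Krt18 and Tgm5 did not. Tgm5 was itself the probe set at the median. Of the 7, 6 passed the adjusted threshold of 0.05 as higher in shLSD1 and 0 as lower, and Krt8 did not pass. Over all genes tested, 8.46% passed as higher and 6.82% as lower. For 5 of the 7 the shControl mean lay below the filter, so they entered the fit only through their shLSD1 signals and had to differ. These counts describe how the group was chosen.

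**Figure D3:**
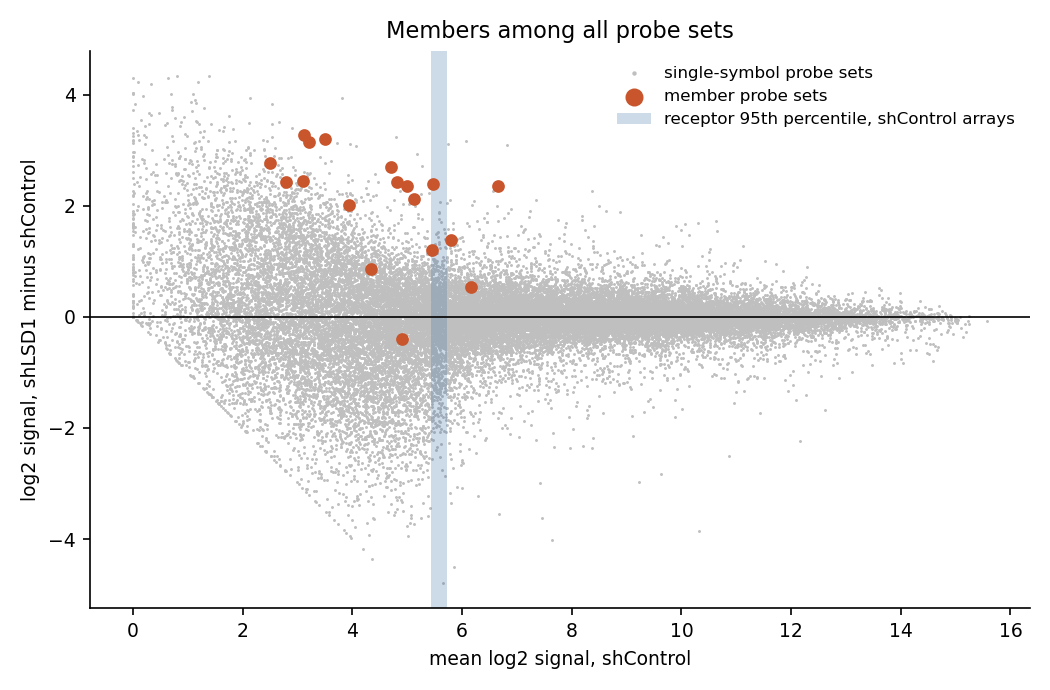
Log2 difference, shLSD1 minus shControl, against the mean log2 shControl signal for 34945 single-symbol probe sets (grey) and the 18 member probe sets (orange), with the receptor 95th percentile of the 2 shControl arrays as a blue band. Grey points fan out to both sides below the band, where most members lie, and Krt19 lies to the right of it at 2.36.

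Kdm1a was lower on both knockdown arrays, with 1842 and 1912 in shControl against 301 and 367 in shLSD1, which leaves 17.7% of the control signal (limma adjusted p = 4.55e-05). The other Kdm1a probe set, which was brighter, left 21.3%. Log2 signals of the tested genes correlated at 0.993 within shControl, 0.991 within shLSD1 and 0.976 to 0.978 across the groups, over genes, which are not independent replicates. The muscle genes that define the line were bright: Des read 14157 to 16031 and Myod1 2322 to 3021 over the 4 arrays. Among 13 tested myogenic markers, 8 fell and 1 rose, where 6.82% of all genes tested fell and 8.46% rose. With either shControl array left out 5 fell, as Acta1 and Mymk lost the call both times, Mef2c without replicate 1 and Ncam1 without replicate 2, and without the intensity trend 2 fell, Actc1 and Tnnt3. Myogenin (Myog) fell by 0.61 (SE 0.07, limma adjusted p = 1.59e-03, not passing without the intensity trend) and Myf5, a determination factor of undifferentiated myoblasts, rose by 1.28 (SE 0.07, limma adjusted p = 8.72e-05). The summed signal of 14 myogenic markers went from 168082 to 172493 in shControl down to 126804 to 136257 in shLSD1. It fell between the same groups in which most members rose, and the muscle markers' part in the members' differences was not tested. More cells with a transcript and more transcript per cell cannot be told apart in these arrays.

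Other epithelial genes were mostly dim, with some higher and some lower in shLSD1. Of the epithelial markers Epcam, Cldn4, Cldn7, Esrp1, Krt7 and Dsp, 0 of 6 lay above the filter and 5 of 6 were near background on all 4 arrays. Their summed signal was 127 to 135 in shControl and 133 to 157 in shLSD1. The epithelial adhesion gene Epcam read 7.19 and 5.48 in shControl and 3.16 and 6.66 in shLSD1, and the splicing factor gene Esrp1 read 2.87 and 1.29, then 1.96 and 2.11. Cldn4, which lies next to Cldn3, read 15.1 and 39.5 in shControl and 39.8 and 43.0 in shLSD1. Dsp, the desmosomal plaque gene, measured -0.29 on the log2 scale by its chosen probe set, and 1.07 and 2.07 by its other 2. The epithelial transcription factor gene Grhl2 read 44.6 and 58.5, then 66.3 and 19.0, so its groups overlapped. In the lists of other keratins, tight junction, adherens junction and desmosome, and epithelial surface genes, 90 genes lay below the filter and were not tested. Of these, 24 had both shLSD1 signals above both shControl signals and 18 had both below. Over all single-symbol probe sets the shares were 23.4% and 23.9%, and no result about these lists is read from the counts. For 7 of the 24 both shLSD1 signals were also above the receptor percentile, a criterion chosen after the values were seen: Krt71, Cldn9, Tjp3, Cgn, Perp, Lama3 and Pls1. No share over all genes is given for that criterion. Lama3, a laminin chain gene of epithelial basement membranes, read 22.7 and 21.4 in shControl and 133 and 105 in shLSD1. Perp, a desmosomal gene, read 39.1 and 50.4, then 108 and 76.8, and the claudin gene Cldn9 read 13.6 and 6.24, then 44.2 and 67.4. Among the 18 with both below, Cdh3 read 31.5 and 29.9 in shControl and 14.1 and 12.6 in shLSD1. Krt23 read 30.7 and 26.1, then 8.43 and 9.12, and both genes were near background on all 4 arrays. Of the markers of other lineages, 0 of 9 endothelial, 2 of 8 haematopoietic, 1 of 6 adipocyte and 1 of 11 trophectoderm and early embryo genes lay above the filter. The summed signal of the trophectoderm and early embryo markers was 234 to 300 in shControl and 295 to 409 in shLSD1, and its part in the members' differences was not tested.

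The relatives of the members moved both ways. Over all genes tested, 8.46% rose and 6.82% fell, and the lists were chosen with earlier results of these data known. Of 40 other keratins measured, 34 were below the filter; 1 of the 6 tested rose and 1 fell (median -0.08 on the log2 scale, against 0.00 over all genes tested). Krt80, a type II keratin, went from 1130 and 1132 in shControl to 2736 and 3600 in shLSD1, a rise of 1.47 (SE 0.12, limma adjusted p = 4.71e-04), while the hair keratin gene Krt81 fell by 0.56. Of 12 other intermediate filament and linker genes, the neurofilament genes Nefl and Nefm rose by 0.70 and 0.74 and Nes fell by 0.21 (median 0.07), and vimentin (Vim) and desmin (Des) measured 0.02 and -0.09. Of 21 tight junction genes tested, 4 rose and 2 fell (median 0.12). Those that rose were Cgnl1, encoding paracingulin (1.78, SE 0.18, limma adjusted p = 9.99e-04, with 1 of 4 other probe sets of opposite sign), the scaffold gene Magi3 (0.70), F11r (0.56) and Jam2 (0.27), and Cldn2 and Amotl2 fell by 0.88 and 0.36. Of 17 adherens junction and desmosome genes, Pkp2, Pkp1 and Nectin3 rose by 0.73, 0.36 and 0.33 and Cdh11 fell by 0.75 (median 0.12). The cadherin genes Cdh2 and Cdh15 measured -0.16 and 0.18, and the junctional genes Ctnnb1, Jup and Tjp1 0.01, 0.16 and -0.08, with limma adjusted p from 0.0952 to 0.861.

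The next lists were chosen in the same way, and 8.46% of all genes tested rose and 6.82% fell. Of 12 tested genes for epithelial surface and apical proteins, Spint1, Ezr, Lgals3 and Cd9 rose by 0.94, 0.77, 0.42 and 0.30 and Erbb3 fell by 0.34 (median 0.04). The other Ezr probe set measured -0.70, and the average of both was 0.04 (limma adjusted p = 0.972). Of 8 genes for the epidermal envelope and transglutaminases, 3 rose (median 0.12): Cst6 by 1.88 (SE 0.08, limma adjusted p = 5.01e-05), Tgm2, the widely expressed relative of Tgm5, by 1.56 (SE 0.08, limma adjusted p = 6.77e-05), and Sprr1a by 0.85. Of 7 partners and paralogues of the members, 3 rose (median 0.40): Tpd52, the founding relative of Tpd52l1, by 1.17 (SE 0.06, limma adjusted p = 6.95e-05), Myh10 by 0.40 and Tpd52l2 by 0.23.

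Of the repressor genes whose products bind the CAGGTG motif, none passed the threshold. Zeb1 and Zeb2 measured 0.01 each (SE 0.06 and 0.09, limma adjusted p = 0.924 and 0.954), Snai1 -0.28 (SE 0.13, limma adjusted p = 0.211) and Snai2 0.38 (SE 0.19, limma adjusted p = 0.240). The 3 other Zeb1 probe sets ranged from -1.14 to 0.56, with 1 of opposite sign, and the 4 other Zeb2 probe sets from 0.05 to 0.46. Averaged over probe sets, Zeb1 and Zeb2 measured -0.11 and 0.27 (limma adjusted p = 0.683 and 0.223). The Snai2 value rested on which shLSD1 array was used, at 0.08 without replicate 1 and 0.68 (limma adjusted p = 7.32e-03) without replicate 2. Twist1 was near background on all 4 arrays. Of 15 tested repressors of epithelial genes, Prrx1 rose by 0.22 and no other passed (median 0.16). Of 8 tested genes in the list of epithelial regulators, not all of which act in epithelia alone, Klf4 rose by 0.52. In that list Trp63, Tead4 and Klf5 fell by 1.63, 0.73 and 0.48 (median -0.09), where 6.82% of all genes tested fell. Trp63 read 182 and 215 in shControl and 84.2 and 48.3 in shLSD1. Its shLSD1 mean on the log2 scale lay below the filter, so it entered the fit only through its shControl signals and had to differ. Of the other probe sets of Trp63 and Klf5, 1 each had the opposite sign (0.95 and 1.60), and averaged over probe sets the genes measured -0.90 and 0.22. Of 23 mesenchymal genes tested, 14 fell and none rose (median -0.31), where 6.82% of all genes tested fell, among them tenascin C (Tnc) by 1.33 (SE 0.07, limma adjusted p = 9.47e-05), Postn by 1.22, Mmp2 by 0.99, Acta2 by 0.85, Col1a2 by 0.39 and Fn1 by 0.27. Without shControl replicate 1 the mesenchymal list had 4 that fell, and without shControl replicate 2 it had 5. Of 8 tested fibroblast markers, 7 fell, and fewer did when either shControl array was left out. These markers are all in the mesenchymal list too, so their count is not a separate result. Without the intensity trend 5 mesenchymal genes and 2 fibroblast markers fell.

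With each gene counted once, the 10 related lists held 126 tested genes, of which 22 rose and 22 fell, or 17.5% in each direction, where 8.46% of all genes tested rose and 6.82% fell. Of the 22 that fell, 14 were in the mesenchymal list, and among the 103 tested genes outside it 22 rose and 8 fell. The lists were chosen with earlier results of these data known, and the mesenchymal list was set apart with its counts known. No excess over all genes can be read from these shares. Over all 10 lists, fewer genes passed in either direction when a shControl array was left out, which leaves 1 array in that group. Calls lost without at least 1 shControl array were those of Krt81, Nefl, Nefm, Nes, Jam2, Cldn2, Amotl2, Pkp1, Pkp2, Nectin3, Cdh11, Spint1, Cd9, Erbb3, Sprr1a, Tpd52l2, Myh10, Prrx1, Trp63, Tead4, Col1a2 and Fn1. F11r, Ezr, Klf5 and Cgnl1 lost theirs when the probe sets of each gene were averaged, and Krt80, Magi3, Cst6, Tgm2, Tpd52, Lgals3, Klf4, Tnc, Mmp2, Postn and Acta2 passed in each alternative run. At least 1 other probe set of F11r, Cldn2, Nectin3, Prrx1 and Tpd52l2 had the opposite sign too.

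**Figure D4:**
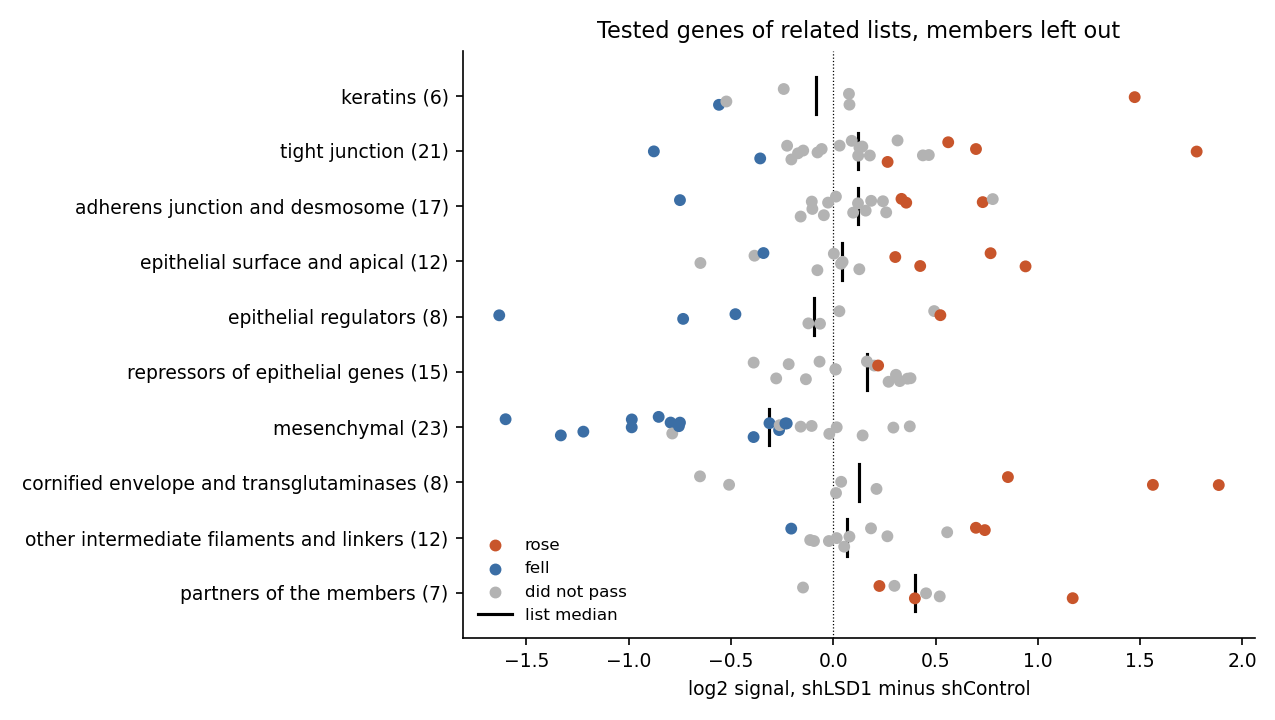
Log2 difference, shLSD1 minus shControl, of the tested genes in 10 related lists with the members left out. Each point is a gene, coloured by whether it rose, fell or did not pass (limma adjusted p threshold 0.05), black bars are list medians, and numbers in brackets are genes tested. The mesenchymal list holds 14 points that fell, and the epithelial lists hold points on both sides of 0.

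Some genes near the members on the chromosome rose, where 8.46% of all genes tested did. Too few neighbours were tested for their share to be set against this. Of the members beside them, Krt18 was itself lower near background and Krt8 did not pass. Taking the 2 genes on each side in the order of the RefSeq gene table, 16 of 38 neighbours were measured and 6 tested, of which 3 rose: Eif4b near Krt18 by 0.26 (SE 0.04, limma adjusted p = 8.61e-03), Mettl27 near Cldn3 by 0.66 (SE 0.14, limma adjusted p = 0.0196) and Hddc2 beside Tpd52l1 by 0.44 (SE 0.11, limma adjusted p = 0.0360). With protein-coding neighbours only, a choice made after seeing the data, 5 of 17 tested rose, the further ones being Tns2 near Krt18 (0.93, limma adjusted p = 6.36e-04) and Abhd11 beside Cldn3 (0.50, limma adjusted p = 5.59e-03). The calls of Eif4b, Mettl27, Hddc2 and Abhd11 were lost when either shControl array was left out.

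The 6 tested genes whose profile over the 4 arrays was nearest to the members' median profile were Rab39b, Csn3, Rhpn2, L1cam, Ptgds and Qpct, by Euclidean distance of log2 signals from the shControl mean (0.28 to 0.44). They are named for likeness alone, over 4 arrays in 2 groups, with no test. Rab39b, a small GTPase gene, read 37.5 and 38.8 in shControl and 170 and 184 in shLSD1. The casein gene Csn3 read 51.7 and 45.6, then 231 and 180, but its other probe set had the opposite sign. L1cam, a neural cell adhesion gene, was brighter, with 325 and 338 in shControl and 1492 and 1715 in shLSD1. Rhpn2, Ptgds, a prostaglandin D synthase gene, and Qpct differed by 2.08, 2.11 and 2.10 on the log2 scale.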

How the data were processed

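The data are 4 arrays of differentiating C2C12 cells, 2 shControl and 2 shLSD1, grouped by their titles in the labels. The values the authors deposited are signal intensities per probe set on a linear scale, made with MAS5 in Affymetrix Expression Console per the submitters' processing notes. Their versions were not given in the sources used here. On every array the trimmed mean (2% off each end) was 500.003, a common target value. Array medians were 67.3 to 69.7, and precision is limited by having 4 arrays.

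Signals under 1 were set to 1 before log2 (505 to 704 values per array). Of 45101 probe sets, 34945 carried exactly 1 symbol in the platform annotation, 932 several and 9160 none. For tests across genes, 1 probe set per gene was taken, avoiding types prone to cross-hybridisation and then by brightness, and genes above the median mean log2 signal were fitted with limma 3.58.1 in R 4.3.3. The variance prior followed mean intensity, which gave 7.46 total degrees of freedom, and two-sided p-values were adjusted by Benjamini-Hochberg with a threshold of 0.05. Differences and SEs of member probe sets come from a fit over all single-symbol probe sets with no filter. Log2 differences are shLSD1 minus shControl. The fit was tested on simulated data. Figures used matplotlib 3.10.9.

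The members and gene lists were chosen with earlier results of these data known. The rules behind the shares of near-background probe sets were set after seeing the data. Named genes are the members, Kdm1a, up to 6 genes past the threshold (those with the smallest adjusted p) from each list, a fixed set of junction, keratin, repressor and muscle genes, neighbours past the threshold and the 6 nearest profiles. As alternatives, the replicate number was added as a block, arrays were dropped in turn, signals were quantile normalized or median centred or had 32 added, the filter was removed or raised to the 75th percentile, the intensity trend was dropped, and probe sets were averaged per gene or all fitted. Promoter sequences are RefSeq's (GRCm38.p6), and Cdh1, Krt19 and Cd24a had no entry.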

Additional observations from a re-analysis of the deposited data

How the results depend on the processing

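Over all genes tested, 913 rose and 736 fell. Leaving out 1 array gave 300 to 1108 and 204 to 1017, and 11 to 29 and 5 to 27 in the related lists (22 and 22). The low values came without a shControl array. Without the intensity trend the counts were 362 and 252, and 12 and 8 in the lists. With probe sets averaged per gene they were 493 and 407, and 13 and 10. With this average F11r measured -0.20, Nectin3 -0.0541 and Klf5 0.22, signs opposite to those of the chosen probe sets, and their other probe sets include ones of opposite sign. With the replicate number as a block the counts were 1113 and 886, and 26 and 24. Deviations of arrays with the same number correlated at 0.01, so the numbers are not shown to pair the arrays. Under the receptor median in place of its 95th percentile, 4 member probe sets had both shControl signals near background rather than 11. Restricting neighbours to protein-coding genes gave 5 past the threshold rather than 3. The other alternatives left these counts within 1.5 times. Member differences kept their sign in each alternative run; Krt8 ranged from 0.31 to 1.80, the latter with its probe sets averaged, and Cldn3 from 1.49 to 4.15. Signal over background limits the folds of the 11 member probe sets with both shControl signals near it.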
